A study of Mus musculus with 7 samples.

Results

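After lipopolysaccharide (LPS), lung monocytes with a high Fth1 reporter signal were compared with those of low signal across all genes other than Fth1 itself, in 5 of the 7 libraries of the series. The members are the 3 libraries labelled LPS-treated and Fth1-High and the 2 labelled LPS-treated and Fth1-Low. All mice were Fth1-mScarlet x Lyz2GFP, so every group carried both fluorescent reporters, and the LPS groups had 20 µg of LPS from E. coli 0111:B4 in 50 µl instilled into the trachea 3 days before the lungs were taken. The digested lungs were sorted for cells positive for GFP, CD11b and Ly6C but negative for Ly6G, and these were divided by low and high mScarlet signal. The other 2 libraries, Fth1-low cells of untreated mice, share the model fit and are given as background. The labels do not give the age or sex of the mice, or whether a replicate was 1 mouse or a pool, so the p-values measure only the spread between these samples, which may be technical. The LPS Fth1-low replicates are called low 1 and low 2 below, and the LPS Fth1-high replicates high 1, high 2 and high 3. Levels are in CPM, the count of a gene scaled to a fixed library total with TMM factors, always in order of replicate number, and a difference is the log2 of Fth1-high over Fth1-low ± its standard error.

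Ferritin is the protein shell in which cells store iron, and Fth1 encodes its heavy chain, which oxidises the iron on entry. Monocytes enter an inflamed lung from the blood by way of chemokine receptors and adhesion molecules, and there they can turn into macrophages that clear dead cells, digest them in lysosomes, export the cholesterol and recycle the iron. Classical monocytes, rich in Ly6C, are the cells that enter tissue in this way, and nonclassical monocytes patrol the vessel wall.

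The 2 LPS Fth1-low libraries stand apart from each other, and each is therefore shown on its own throughout. Low 1 held 637787 counts over 12292 detected genes, and the other 6 libraries held 16.4 to 43.9 times as many. In low 1 a single count equals 1.67 CPM and 3 counts equal 5.02 CPM. Ribosomal RNA genes took 18.7% of the counts in low 1 and 8.33% in high 1, against 0.631% to 4.02% in the others. Across genes, which are not independent replicates, log2 CPM in low 1 and low 2 correlated at 0.863 (Pearson), and the pairs of Fth1-high libraries at 0.960 to 0.980.

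Monocyte markers were abundant in all 5 libraries, and those of most other cell types were low. The summed level of 10 monocyte markers was 16219 and 19647 CPM in low 1 and low 2 and 15088, 19393 and 18560 CPM in the Fth1-high libraries, where 2 of the 10 were called lower. Fth1, the gate gene, was at 2969.9 and 4825 CPM in Fth1-low, 13230.5, 20999.8 and 20473 CPM in Fth1-high and 1786 and 1672 CPM in untreated cells, which checks the labels and is no finding. Lyz2, the gene behind the GFP reporter, was at 7123 and 9151 CPM in Fth1-low and 6140.2, 8094 and 9659 CPM in Fth1-high cells, which overlap (-0.03 ± 0.29, adjusted p = 0.97). Itgam and Ly6c2, genes of the other positive sort markers, were higher in every Fth1-high library without a call. Itgam, which encodes CD11b, was at 750.01 and 1116 against 1602, 2109 and 1533 CPM (0.90 ± 0.27, adjusted p = 0.081). Ly6c2, which encodes Ly6C and has a near-identical copy in Ly6c1, was at 1393 and 847 against 1981, 2979.9 and 1854 CPM (1.03 ± 0.32, adjusted p = 0.093). Ly6c1 was at 127 and 53.0 against 115, 262 and 168 CPM, which overlap (1.12 ± 0.44, adjusted p = 0.17). Ly6g, the neutrophil marker excluded by the sort, had no count in low 1, high 1 and high 2, 1 count in low 2 and 2 counts in high 3. Of 15 dendritic cell markers 14 were tested and 7 were lower in Fth1-high cells, with sums of 226 and 195 CPM against 53.9, 31.8 and 43.0 CPM. Sums of T and NK cell markers were 90.4 and 43.1 CPM against 26.4, 8.25 and 24.0 CPM, and those of fibroblast and smooth muscle markers 191 and 40.9 CPM against 86.1, 20.3 and 37.7 CPM, with no gene of either list called. Epithelial markers summed to 33.5 and 146 CPM against 28.5, 18.2 and 91.3 CPM, and endothelial ones to 290 and 167 CPM against 222, 48.4 and 135 CPM, again with no call. None of the markers of these 4 cell types was at 0 in all 5 libraries. The part of other cell types in the differences below was not tested.

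Low 1 and low 2 differed from each other in both directions. Among 1218 genes whose mean over both libraries reached 150 CPM, 53 were more than 2-fold higher in low 1 and 60 more than 2-fold higher in low 2. Ccn2, a matricellular growth factor of stromal cells, was at 335 and 21.1 CPM in low 1 and low 2 and at 124, 8.41 and 6.08 CPM in the Fth1-high libraries. For Ccn2 high 1 lay between low 1 and the other LPS libraries. Hspg2, the basement membrane proteoglycan perlecan, stood at 333 and 27.9 CPM against 146, 9.75 and 7.03 CPM, and Malat1, a nuclear noncoding RNA, at 1779.6 and 272 CPM against 1471, 222 and 218 CPM. For both, low 1 and high 1 stood above the other LPS libraries. None of these 3 genes was called between the groups (adjusted p = 0.65, 0.68 and 0.81), and their differences of -1.82, -1.62 and -0.67 became 1.08, 0.90 and 1.19 without low 1. In the other direction Apoe, the lipid carrier of macrophages, was at 306 CPM in low 1 and 1288 CPM in low 2, against 2493, 2645 and 4020.1 CPM in Fth1-high cells and 1719 and 1623 CPM in untreated cells. Low 1 alone lay far below every other library for Apoe, and the gene was not called (1.92 ± 0.53, adjusted p = 0.061) unless low 2 was left out (adjusted p = 0.013). Lgmn, a lysosomal protease, repeated this with 144 and 433 CPM against 556, 603 and 761 CPM (adjusted p = 0.13, and 0.015 without low 2).

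**Figure D1:**
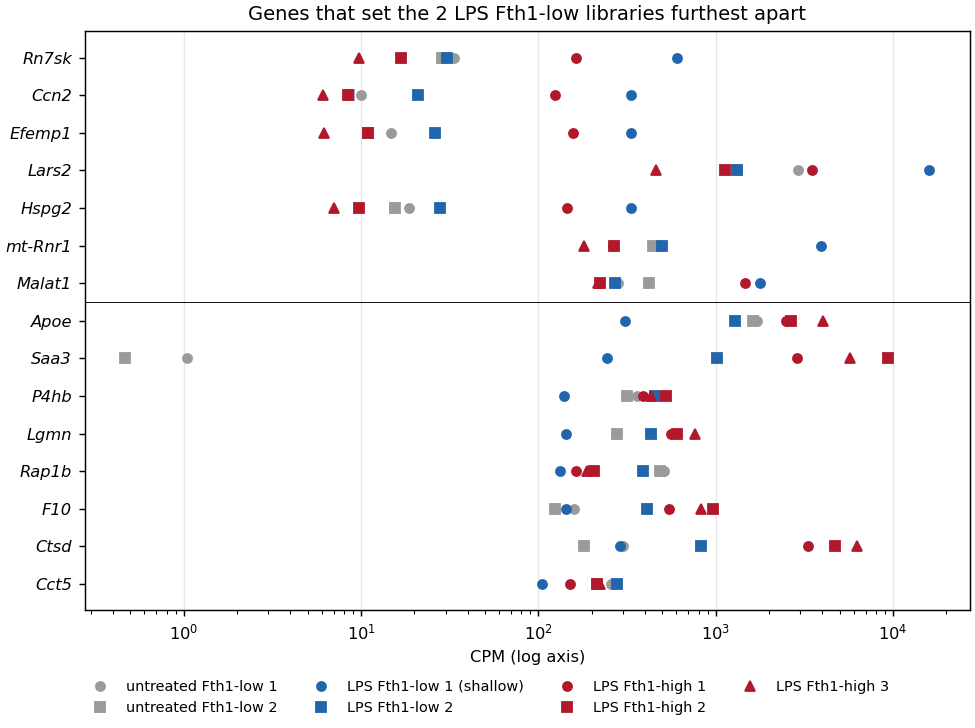
CPM of 7 of the 8 genes highest in LPS Fth1-low replicate 1 over replicate 2 (above the line) and of the 8 highest in replicate 2 over replicate 1 (below it), with 1 point for each of the 7 libraries and a log x axis. For Ccn2 and Hspg2, LPS Fth1-high replicate 1 lies between the shallow LPS Fth1-low library and all others. For Malat1 it lies close to the shallow library, and for Apoe and Lgmn the shallow library lies below the other 6.

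The test covered 13665 genes, of which 503 (3.68%) had a higher and 625 (4.57%) a lower level in the Fth1-high gate at an adjusted p below 0.05, and Fth1, the gate gene, is among the 503. Median sizes were 1.47 on the log2 scale for the rises and 1.58 for the falls, and 26 rises and 49 falls exceeded 16-fold. The libraries of the groups did not overlap for 1112 of these 1128 genes. Over all genes tested, 24.2% lay higher and 17.1% lower in every Fth1-high than in every Fth1-low library. In these sorted cell mixtures, fewer cells of a type and less RNA per cell cannot be told apart.

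The calls depended on which Fth1-low library stayed in the fit. Without low 1, 306 of 14567 genes (2.1%) were higher and 602 (4.13%) lower, and without low 2, 682 of 14469 (4.71%) were higher and 379 (2.62%) lower. Leaving out high 2 gave 263 higher and 395 lower, and leaving out high 3 gave 291 and 390. Of the 503 rises, 177 (35.2%) were called in the full fit and without either low library, as were 244 (39%) of the 625 falls. The median difference of all genes was 0.04, and 0.28 without low 2, so rises there are read against a raised middle. At most 3 counts in low 1 lay behind 98 of the 503 rises. Over all 13665 genes tested, 3737 had fewer than 3 counts in low 1.

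**Figure D2:**
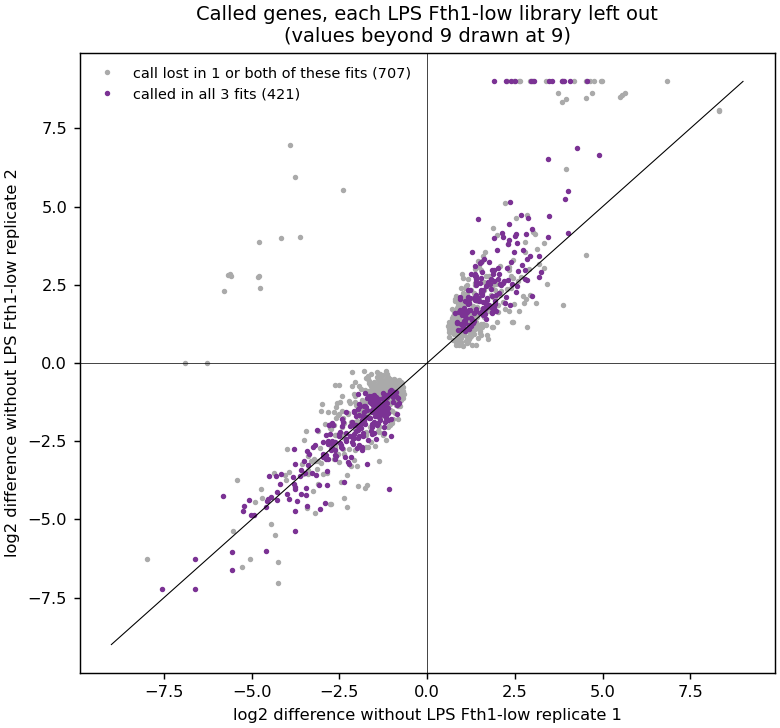
The 1128 called genes by their log2 difference (Fth1-high over Fth1-low) without LPS Fth1-low replicate 1 on the x axis and without replicate 2 on the y axis, with values beyond 9 drawn at 9. The 421 genes called in all 3 fits have the same sign on both axes by their definition, but they do not all lie near the diagonal, such as C1ra at 2.67 on the x axis and 4.72 on the y axis.

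Gpnmb, Slc1a2, Hal, Lhfpl2 and Pdpn were among the 15 largest rises. Gpnmb, a glycoprotein of lysosome-rich macrophages (chr6:49036546-49070929 in mm10, plus strand), was at 8.37 and 27.7 CPM in Fth1-low and 616, 719 and 1151 CPM in Fth1-high cells, with 4.66 and 3.54 CPM in untreated cells. The 3 Fth1-high libraries lay far above the other 4 (5.22 ± 0.48, adjusted p = 3.3e-04). Slc1a2, a glutamate transporter best known from astrocytes, had no count in low 1, 1.65 CPM in low 2 and 27.9, 36.2 and 54.1 CPM in the Fth1-high libraries. Untreated cells held 0.125 and 0.186 CPM, so the gene was well above all 4 other libraries in the Fth1-high cells alone (4.69 ± 0.49, adjusted p = 5.8e-04). Hal, the histidine-degrading enzyme, was at 15.1 and 22.3 CPM against 207, 302 and 227 CPM (3.59 ± 0.33, adjusted p = 3.5e-04). The Fth1-high libraries lay close together and far above both Fth1-low ones. Lhfpl2, a membrane protein, went from 8.37 and 19.4 to 189, 216 and 249.98 CPM. Pdpn, the glycoprotein podoplanin, went from 1.67 and 7.71 to 93.6, 109 and 165 CPM. For both, the groups were widely apart (3.71 ± 0.54, adjusted p = 0.0039 for Lhfpl2, and 4.16 ± 0.62, adjusted p = 0.0047 for Pdpn). Without low 2 the Pdpn call was lost (adjusted p = 0.053), and the differences became 6.64 for Gpnmb, 4.71 for Lhfpl2 and 6.195 for Pdpn. There Slc1a2 kept its call (adjusted p = 0.028) but, with no count in the 1 Fth1-low library left, its difference has no interpretable size.

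Per2, Tmeff1, Gdpd1 and Slc6a12 also belonged to the 15 largest rises. Per2, a repressor of the circadian clock, was at 0 and 2.62 CPM in Fth1-low and 21.2, 33.04 and 40.1 CPM in Fth1-high cells. Every Fth1-high library was above both Fth1-low libraries (3.73 ± 0.48, adjusted p = 0.0018). Tmeff1, a transmembrane protein with follistatin-like domains, was at 0 and 4.58 against 48.2, 83.2 and 68.5 CPM. Gdpd1, a phospholipase, was at 0 and 3.29 against 35.3, 59.4 and 55.1 CPM. Both were higher in every Fth1-high library (adjusted p = 0.0034 and 0.0035). Slc6a12, the betaine and GABA transporter, was at 0 and 1.49 against 17.3, 35.3 and 29.5 CPM (4.31 ± 0.61, adjusted p = 0.0027). All 4 genes had no count in low 1 and a low level in low 2. Without low 2 the Slc6a12 call was lost (adjusted p = 0.065), the other 3 kept theirs (adjusted p = 0.031, 0.040 and 0.0499), and none of the 4 differences has an interpretable size in that fit.

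**Figure D3:**
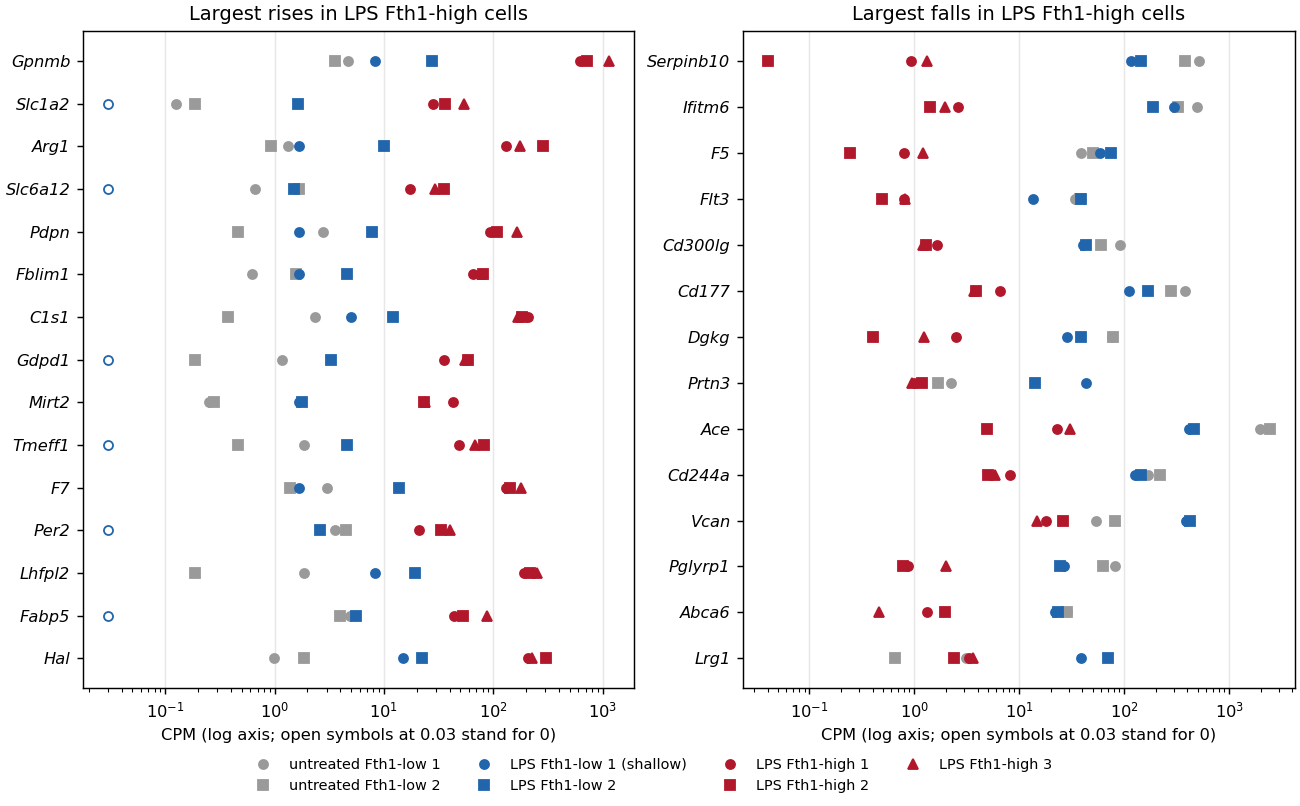
CPM in each of the 7 libraries, on a log axis, of the 15 genes with the largest rises (left) and of 14 of the 15 with the largest falls (right) among called genes of at least 10 CPM, with open symbols for 0. The 3 LPS Fth1-high libraries lie to the right of both LPS Fth1-low libraries for every rise and to the left for every fall, while the shallow library is at 0 for Slc1a2, Slc6a12, Gdpd1, Tmeff1, Per2 and Fabp5.

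Among genes of lipid handling, those called from the lipid-associated macrophage and cholesterol efflux lists were higher in Fth1-high cells with 1 exception, and those called from the list of sterol synthesis and uptake were all lower. Of 20 lipid-associated macrophage genes 8 were called higher and 1 lower, against 3.68% and 4.57% of all genes, with a median difference of 1.37 (2.17 without low 2). At an unadjusted p below 0.05, 10 of them were higher and 4 lower, and by DESeq2's Wald test 9 were higher and 3 lower. Of 17 genes of cholesterol efflux and sterol handling 6 were higher and 0 lower (median 0.63), with 2 lower at an unadjusted p below 0.05 and 0 by DESeq2's Wald test. Of 22 genes of sterol synthesis and uptake 0 were higher and 5 lower (median -0.45), with 0 higher at an unadjusted p below 0.05 and 0 by the Wald test. Without low 1 the 3 lists had 4 and 2, 4 and 1, and 0 and 3 genes higher and lower. Without low 2 they had 6 and 1, 7 and 0, and 0 and 1. The sterol list also had 2 lower without high 1 or high 3 and 3 without high 2.

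Abca1, which passes cholesterol to lipoproteins, stood at 33.5 and 80.5 CPM in Fth1-low cells and 586, 752 and 615 CPM in Fth1-high cells, and at 13.6 and 13.2 CPM in untreated ones. Low 2 lay above low 1, and both lay far under the Fth1-high libraries (3.39 ± 0.35, adjusted p = 5.6e-04). Nceh1, which frees stored cholesterol from its esters, was at 16.7 and 37.7 against 75.1, 114 and 113 CPM (1.69 ± 0.32, adjusted p = 0.011). Npc1, the exporter of cholesterol from the lysosome, was at 66.97 and 140.3 against 338, 407 and 370.5 CPM (1.77 ± 0.29, adjusted p = 0.0062). All 3 genes were higher in every Fth1-high library, and without low 2 their differences rose to 4.29, 2.59 and 2.48. Apoc2, the cofactor of lipoprotein lipase, was at 48.6 and 61.6 against 159, 237 and 215 CPM, and its call held without any single library (1.85 ± 0.27, adjusted p = 0.0035). Fabp5, a fatty acid binding protein, was at 0 and 5.55 against 43.8, 53.3 and 88.6 CPM (adjusted p = 0.0027). Every Fth1-high library was above both Fth1-low ones. Fabp5 had no count in low 1, so its difference without low 2 has no interpretable size although the call held (adjusted p = 0.028). Cd63, a tetraspanin of late endosomes, was at 8.37 and 6.74 against 36.96, 67.5 and 100.4 CPM (3.29 ± 0.52, adjusted p = 0.0053), a call lost without low 2 (adjusted p = 0.12). The 1 member called lower was Ocstamp, which takes part in cell fusion to multinucleate cells. It was at 18.4 and 17.5 against 1.06, 0.569 and 0.636 CPM (-4.58 ± 0.46, adjusted p = 5.4e-04).

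On the synthesis side, Idi1, an isomerase of the mevalonate pathway, was at 18.4 and 21.03 CPM in Fth1-low and 5.24, 5.93 and 6.08 CPM in Fth1-high cells, and at 48.1 and 93.04 CPM in untreated cells (-1.82 ± 0.30, adjusted p = 0.0060). Idi1 was close to equal within each of the LPS groups. Cyp51, a demethylase of the sterol ring, was at 25.1 and 49.9 against 12.1, 19.7 and 15.8 CPM. Msmo1, another demethylase of this pathway, was at 43.5 and 51.3 against 22.4, 28.7 and 26.3 CPM. Both were lower in every Fth1-high library (adjusted p = 0.028 and 0.034). The call of Idi1 was lost without low 2 (adjusted p = 0.16). Cyp51 lost its call without low 2 (difference -0.65, adjusted p = 0.51), high 1 (adjusted p = 0.064) or high 3 (adjusted p = 0.083). Msmo1 lost its call without any 1 of the 5 LPS libraries, with adjusted p = 0.055, 0.21, 0.087, 0.073 and 0.10.

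**Figure D4:**
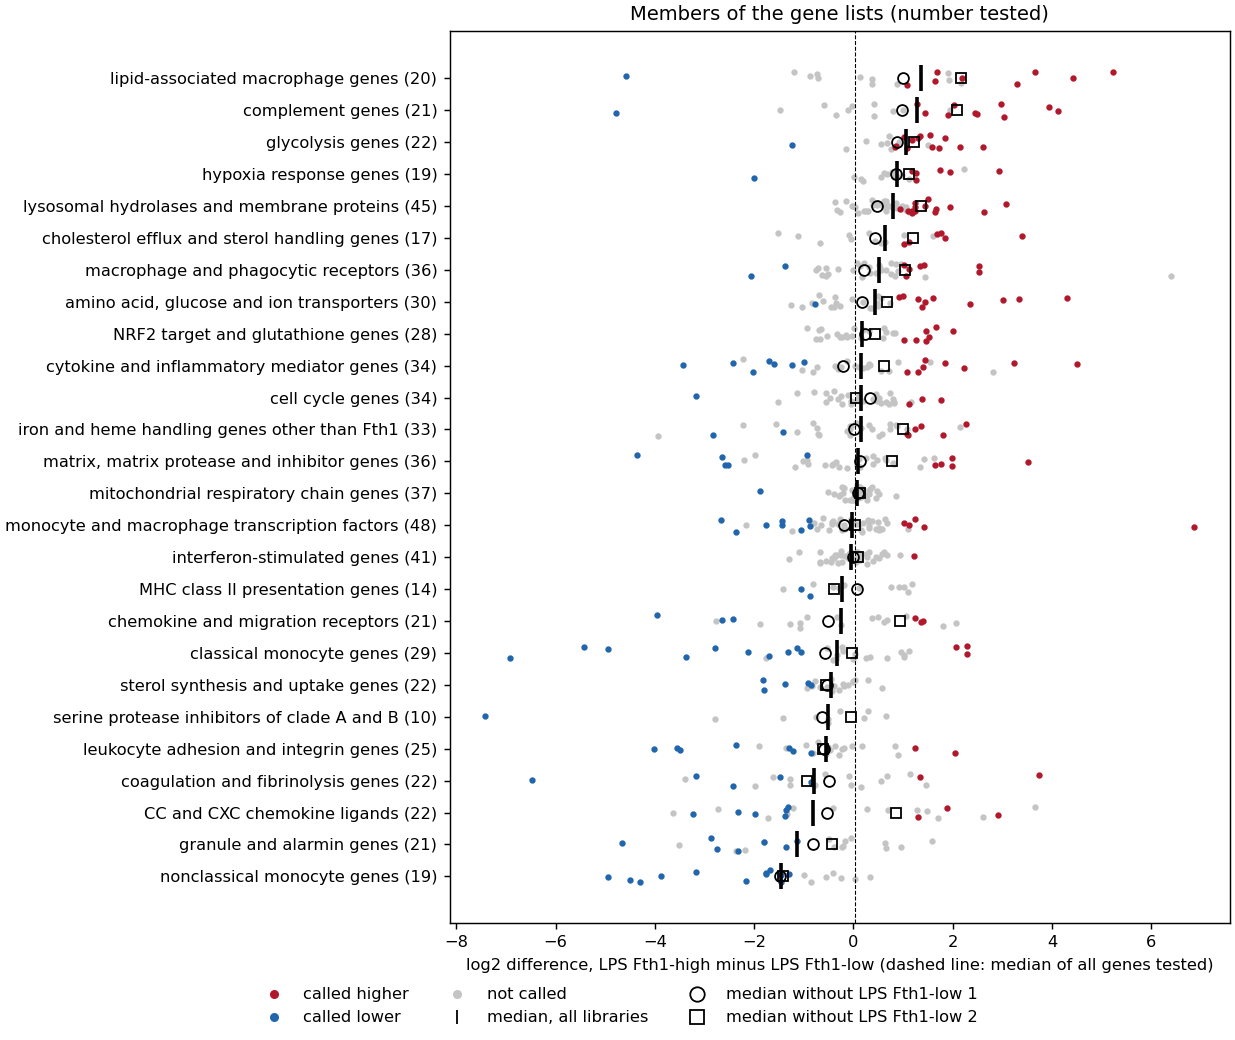
Log2 difference of each tested member of the 26 gene lists, Fth1-high over Fth1-low, coloured by call, with the list median from all libraries (bar) and without either LPS Fth1-low library (open symbols). The dashed line is the median of all genes, 0.04, and the medians run from 1.37 for lipid-associated macrophage genes to -1.46 for nonclassical monocyte genes.

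The lysosomal genes that passed the test were all higher in Fth1-high cells. Of 45 lysosomal hydrolases and membrane proteins 14 were higher and 0 lower (median 0.80), and 0 were lower at an unadjusted p below 0.05 or by DESeq2's Wald test. The list had 6 higher without low 1 and 24 without low 2. It had 8 higher without untreated 1, untreated 2 or high 2, and 7 without high 3. Ctsd, the aspartic protease cathepsin D, was at 288 and 825 CPM in Fth1-low cells and 3331, 4705 and 6229.6 CPM in Fth1-high cells, against 301 and 181 CPM in untreated cells. Low 2 lay above low 1, and both were well below the Fth1-high libraries (3.08 ± 0.51, adjusted p = 0.0064, or 4.05 without low 2). Naglu, which degrades heparan sulfate, was at 28.5 and 34.6 against 108, 127 and 142 CPM (1.95 ± 0.23, adjusted p = 0.0011). Gaa, which degrades glycogen, was at 33.5 and 56.6 against 138, 142 and 171 CPM (1.64 ± 0.25, adjusted p = 0.0040). The groups did not overlap for either enzyme. Tpp1, a peptidase, was at 82.03 and 96.02 against 230.1, 244 and 265 CPM. Mcoln1, a calcium channel of the lysosome membrane, was at 23.4 and 28.03 against 58.7, 59.7 and 62.5 CPM. For these last 2, low 1 and low 2 lay close together and the differences were 1.45 and 1.18 (adjusted p = 0.0024 and 0.0060), and the calls of Naglu, Gaa, Tpp1 and Mcoln1 held without any single library. Gm49369, on the same strand, overlaps Ctsd and could share its reads.

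Many lysosomal genes carry an E-box (letters CACGTG, the same on both strands) near the start, the sequence that transcription factors of the MiT/TFE family, among them Mitf, Tfeb and Tfe3, recognise. The letters occur in 1066 of 13178 RefSeq promoters of the tested genes (8.09%; 250 bases before each start, 76.2% of the genes matched). They were in 11.8% of the promoters of genes called higher and in 7.11% of those called lower. In the lysosomal list, 13 of 42 promoters (31%) held the E-box, 6 of 11 among the members called higher and 7 of 31 among those not called. For comparison, TGANTCA, the letters of AP-1, on either strand, were in 4.67% of all promoters, 7.86% of those of genes called higher and 7.58% of those of genes called lower. A match is a description of the letters and shows no binding. To show the sites, 5 from 3 of the members called higher are printed 5′ to 3′ on the strand of the gene, with the E-box in capitals and up to 12 bases on either side (RefSeq, GRCm38.p6), and the position of the site is counted back from the RefSeq start.
Ctsd, chr7:142388055-142388077, minus strand, 245 bases before the start: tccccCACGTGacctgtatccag
Ctsd, chr7:142387908-142387937, minus strand, 98 bases before the start: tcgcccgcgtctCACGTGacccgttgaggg
Gaa, chr11:119267811-119267840, plus strand, 140 bases before the start: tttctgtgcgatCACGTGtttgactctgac
Mcoln1, chr8:3500436-3500465, plus strand, 71 bases before the start: ggtcgcgcttgtCACGTGttcagttcaggc
Mcoln1, chr8:3500462-3500491, plus strand, 45 bases before the start: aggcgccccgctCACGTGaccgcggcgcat

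The sites were chosen after the calls were known. GENCODE starts some of these transcripts further upstream, so that the Ctsd site at 98 bases and the Mcoln1 site at 45 bases lie inside its gene models, and the other 3 lie 34, 64 and 9 bases before its starts. Among the factors themselves, Mitf was at 28.5 and 46.1 CPM in Fth1-low and 98.2, 100.4 and 122 CPM in Fth1-high cells (1.41 ± 0.25, adjusted p = 0.0090). Mitf lay higher in every Fth1-high library, and its call held without any single library. The other 2 were not called, with Tfeb at 68.6 and 92.6 against 58.7, 52.1 and 73.1 CPM (adjusted p = 0.31) and Tfe3 at 131 and 122 against 128, 141 and 124 CPM (adjusted p = 0.91). These 3 factors were chosen for mention after their values were seen.

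Enzymes of glycolysis were mostly higher. Of 22 genes 13 were higher and 1 lower (median 1.05), with 6 and 1 without low 1, 8 and 0 without low 2, 6 and 1 without high 2, and 8 and 1 without high 3. Pfkl, a phosphofructokinase, was at 58.6 and 105 CPM in Fth1-low and 370.2, 361 and 402 CPM in Fth1-high cells, and at 52.3 and 48.01 CPM in untreated cells. The Fth1-high libraries lay close together and above all others (2.14 ± 0.26, adjusted p = 0.0013). Both Fth1-low libraries were above the untreated ones. Aldoc, an aldolase, was at 3.35 and 3.34 against 25.5, 15.2 and 20.3 CPM (2.60 ± 0.36, adjusted p = 0.0026), but low 1 had 2 counts and the call was lost without low 2 (adjusted p = 0.058). Pkm, pyruvate kinase, was at 795 and 1206 against 2140.4, 2272 and 1978 CPM (1.09 ± 0.25, adjusted p = 0.027). Low 2 and the Fth1-high libraries were less than 2-fold apart for Pkm, and its call was lost without any single library other than low 2, with adjusted p of 0.057 and 0.070 without untreated 1 and 2, 0.081 without low 1, and 0.053, 0.093 and 0.071 without high 1, high 2 and high 3.

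Of the hypoxia response genes, several were higher and 1 was lower. They were 6 higher and 1 lower of 19 (median 0.88), and 5 and 1 without low 1 or low 2. Bnip3, a receptor for the removal of mitochondria, was at 18.4 and 19.03 against 72.8, 59.3 and 58.5 CPM (1.75 ± 0.23, adjusted p = 0.0019). Egln3, an oxygen-sensing hydroxylase, was at 3.35 and 3.50 against 32.8, 20.1 and 26.8 CPM, and low 1 rested on 2 counts (2.93 ± 0.39, adjusted p = 0.0021). Ndrg1, a stress-responsive gene, went the other way, at 116 and 117 CPM in Fth1-low and 34.7, 23.7 and 28.1 CPM in Fth1-high cells (-2.01 ± 0.21, adjusted p = 6.0e-04). Low 1 and low 2 were nearly equal for these 3 genes. Pdk1, which keeps pyruvate out of the mitochondrion, was at 36.8 and 33.9 against 87.9, 70.6 and 79.1 CPM (adjusted p = 0.0072). Without low 2 the calls of Egln3 and Pdk1 were lost (adjusted p = 0.061 and 0.051).

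Of 37 respiratory chain genes 0 were higher and 1 was lower (median 0.07) by edgeR's quasi-likelihood test. These are 0% and 2.7% of the list, against 3.68% and 4.57% of all genes. In 37 genes, counts this small do not set the list apart from all genes. At an unadjusted p below 0.05, 1 was higher, and 1 by DESeq2's Wald test. The median was below 0 without high 2 or high 3. The single call was Ndufa4, of cytochrome oxidase, at 95.4 and 58.01 against 15.5, 21.1 and 22.7 CPM (-1.88 ± 0.27, adjusted p = 0.0030). Of 34 cell cycle genes 3 were higher and 1 lower (8.82% and 2.94%, median 0.15), and 13 of them had fewer than 3 counts in low 1. Ndufa4 was lower in every Fth1-high library. Mki67, the proliferation marker, was at 41.9 and 39.04 against 78.6, 142 and 91.6 CPM (1.38 ± 0.31, adjusted p = 0.026), a call lost without low 1, low 2 or high 2 (adjusted p = 0.10, 0.16 and 0.067). High 2 stood above the other Fth1-high libraries for Mki67. The list had 1 higher without high 2, and 0 lower without low 1, low 2, high 2 or high 3.

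Transporters of amino acids, sugars and metals gave 10 higher and 1 lower of 30 (median 0.43), with 5 and 2 without low 1, 9 and 0 without low 2, 5 higher without high 2 and 6 without high 3, and 0 lower without untreated 2, high 1 or high 3. Slc7a2, which imports arginine, was at 85.4 and 204 CPM in Fth1-low, 948, 1364 and 1321 CPM in Fth1-high and 2.71 and 1.77 CPM in untreated cells. Levels thus stepped from untreated to Fth1-low to Fth1-high without overlap (3.00 ± 0.39, adjusted p = 0.0019 between the gates). Arg1, which splits arginine to urea and ornithine, was at 1.67 and 10.1 against 131, 286 and 174 CPM, with 1 count in low 1 (4.51 ± 0.50, adjusted p = 9.0e-04). The groups did not overlap, and low 2 lay above low 1. Slc37a2, a sugar phosphate exchanger of macrophages, was at 11.7 and 35.3 against 138, 150.2 and 139 CPM (2.34 ± 0.33, adjusted p = 0.0027). Without low 2 the differences of Slc7a2, Arg1 and Slc37a2 rose to 3.84, 6.88 and 3.61. Slc7a8, an exchanger of neutral amino acids, was at 124 and 121 against 403, 416 and 293 CPM, nearly the same in low 1 and low 2 (1.60 ± 0.25, adjusted p = 0.0043).

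Iron and oxidant genes beyond the gate gene moved in part. Of 33 iron and heme genes other than Fth1, 6 were higher and 2 lower (median 0.14), with 4 and 3 without low 1, 6 and 2 without low 2, 3 and 1 without high 2, and 1 lower without high 1 or high 3. The median was 1.01 without low 2. Hmox1, which breaks down heme and frees its iron, was at 98.8 and 127 CPM in Fth1-low cells, 444, 619 and 596 CPM in Fth1-high cells and 116 and 118 CPM in untreated cells. Fth1-low and untreated levels overlapped, and the Fth1-high libraries lay above all 4 (2.27 ± 0.24, adjusted p = 7.0e-04). Slc25a37, the iron importer of mitochondria, was at 132 and 127 against 484, 471 and 409 CPM (1.81 ± 0.20, adjusted p = 8.2e-04). Low 1 and low 2 were nearly equal for Slc25a37. Slc48a1, which carries heme out of the lysosome, was at 63.6 and 51.2 against 121, 159 and 149 CPM, a smaller difference (1.36 ± 0.24, adjusted p = 0.0087) that lost its call without low 2 (adjusted p = 0.066). Bach1, the heme-sensing repressor of Hmox1 and the ferritin genes, was lower, at 311 and 332 against 144, 106 and 112 CPM (-1.42 ± 0.21, adjusted p = 0.0036). Fth1 and the ferritin light chain gene have processed copies elsewhere in the genome, which may share reads.

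NRF2 target and glutathione genes gave 7 higher and 0 lower of 28 (median 0.17), with 5 lower at an unadjusted p below 0.05 and 3 by DESeq2's Wald test, and 4 higher without low 1 or low 2. Without high 2 there was also 1 lower. Prdx6, a peroxide-reducing enzyme, was at 92.1 and 157 against 531, 510.3 and 509 CPM, with nearly equal levels in the Fth1-high libraries (2.01 ± 0.28, adjusted p = 0.0027). Gclm, a subunit of the enzyme that starts glutathione synthesis, was at 15.1 and 12.2 against 33.4, 37.2 and 36.1 CPM (1.47 ± 0.23, adjusted p = 0.0043). Srxn1, which repairs peroxiredoxins, was at 31.8 and 25.97 against 71.2, 63.6 and 62.9 CPM (1.25 ± 0.23, adjusted p = 0.0095). For Gclm and Srxn1 the groups did not overlap, and both calls were lost without low 2 (adjusted p = 0.053 and 0.079).

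Genes of the early complement cascade and of the alternative pathway were among those higher in Fth1-high cells. Of 21 complement genes 10 were higher and 1 lower (median 1.27, or 2.08 without low 2), with 6 and 1 without low 1 or high 2 and 11 and 1 without low 2. C1s1 and C1ra encode proteases of the C1 complex. C1s1 was at 5.02 and 12.2 CPM in Fth1-low and 208, 185 and 169 CPM in Fth1-high cells. C1ra was at 6.70 and 27.2 against 199.8, 169 and 158 CPM. Both were far higher in every Fth1-high library. The difference was 4.12 ± 0.52, adjusted p = 0.0019 for C1s1 and 3.03 ± 0.38, adjusted p = 0.0015 for C1ra, and it was 5.23 and 4.72 without low 2, where low 1 held 3 and 4 counts of these genes. Cfb, the protease of the alternative pathway, was at 871 and 1742 CPM against 6649, 8228 and 6491 CPM, and at 47.97 and 82.7 CPM in untreated cells. It was 1 of the 8 called rises with the highest CPM (2.44 ± 0.39, adjusted p = 0.0050, or 3.04 without low 2). C3, the central component, was at 1277 and 1907 against 3824, 4107 and 3621 CPM (1.27 ± 0.26, adjusted p = 0.017), and lost its call without low 1 or high 2 (adjusted p = 0.066 and 0.059). C1r and C1s genes have near-identical copies, and reads may be divided among them.

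Clotting genes went both ways. Of 22, 2 were higher and 5 lower (median -0.80), with 2 and 4 without low 1 and 3 and 2 without low 2. F7, the protease that starts clotting with tissue factor, was at 1.67 and 13.8 against 132, 143 and 181 CPM (3.74 ± 0.47, adjusted p = 0.0017), with 1 count in low 1 and a difference of 6.51 without low 2. Procr, the receptor of protein C, was at 71.99 and 81.5 against 208, 176 and 204 CPM, and at 0.666 and 0.466 CPM in untreated cells (1.34 ± 0.21, adjusted p = 0.0043). Procr was thus present in both gates after LPS and near 0 without it. F5, the cofactor of thrombin formation, was at 58.6 and 74.3 CPM in Fth1-low cells and 0.796, 0.244 and 1.20 CPM in Fth1-high cells, close to 0 in all 3 (-6.48 ± 0.45, adjusted p = 1.2e-04, or -7.14 without high 3). Pros1, the cofactor of protein C and a ligand of Mertk, was at 56.9 and 89.2 against 13.3, 11.9 and 17.3 CPM (-2.43 ± 0.25, adjusted p = 6.0e-04). The groups were far apart for F5 and did not overlap for Pros1. Serpinb10 was the only called gene of 10 clade A and B protease inhibitors and the largest fall of all named genes, at 116 and 143 against 0.929, 0.0406 and 1.31 CPM (-7.42 ± 0.69, adjusted p = 7.0e-04, or -8.30 without high 3). The annotation lists Serpinb10 (chr1:107529003-107549271, plus strand) as a polymorphic pseudogene that overlaps Serpinb2 on the same strand. The serpin list had 0 higher, also at an unadjusted p below 0.05 and by DESeq2's Wald test, and it had 2 lower without high 1 or high 2.

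Matrix genes, proteases and inhibitors were 5 higher and 5 lower of 36 (median 0.09, 0.78 without low 2 and below 0 without high 1 or high 3), with 2 and 4 without low 1 and 5 and 4 without low 2. Mmp14, a membrane-bound collagenase, was at 299.7 and 461 against 1102, 1321 and 1196 CPM and 7.29 and 6.90 CPM in untreated cells (1.65 ± 0.25, adjusted p = 0.0038). Adam19, a membrane protease, was at 56.9 and 64.4 against 211, 237 and 175 CPM (1.75 ± 0.24, adjusted p = 0.0024). Both were higher in every Fth1-high library. Vcan, the proteoglycan versican, was lower, at 387 and 426 against 18.05, 26.1 and 14.8 CPM (-4.37 ± 0.29, adjusted p = 9.5e-05). Mmp25, a membrane protease of leukocytes, was lower too, at 20.1 and 21.03 against 3.12, 3.90 and 3.25 CPM (-2.59 ± 0.31, adjusted p = 0.0013). Thbs1, thrombospondin, was at 3181 and 2141 against 705, 290.00 and 273 CPM, with high 1 above the other Fth1-high libraries (-2.65 ± 0.46, adjusted p = 0.0084). Its call was lost without low 1 (adjusted p = 0.058), and its difference was -3.24 without high 1.

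Most of the called genes of the monocyte lists were lower in Fth1-high cells. Of 29 classical monocyte genes 3 were higher and 10 lower (median -0.33), with the same counts without low 1 and 3 and 6 without low 2. Ly6c2, which encodes Ly6C, was not called, with a difference of 1.03 (adjusted p = 0.093), and neither was its copy Ly6c1. Of 19 nonclassical monocyte genes 0 were higher and 12 lower (median -1.46), 0 being higher at an unadjusted p below 0.05 or by DESeq2's Wald test, with 12 lower without low 1 and 8 without low 2. Plac8 (chr5:100553725-100572245 in mm10, minus strand), a small protein of classical monocytes, was at 3279.6 and 2408 CPM in Fth1-low, 336, 263 and 224 CPM in Fth1-high and 2266 and 2192 CPM in untreated cells. The 4 other libraries lay close together and far above the Fth1-high ones (-3.37 ± 0.26, adjusted p = 1.8e-04). Ifitm6, of the interferon-induced transmembrane family, was at 295 and 189 against 2.59, 1.42 and 1.98 CPM (-6.92 ± 0.35, adjusted p = 5.6e-05), although reads of this family may be shared between copies. Cd177, a glycoprotein on the surface of neutrophils, was at 110.5 and 169.9 against 6.57, 3.90 and 3.71 CPM (-4.94 ± 0.33, adjusted p = 9.5e-05). For Ifitm6 and Cd177 every Fth1-high library held a small part of the Fth1-low level. Flt3, a growth factor receptor of dendritic cell progenitors and 1 of the 7 dendritic cell markers that were lower, was at 13.4 and 38.9 against 0.796, 0.488 and 0.813 CPM (-5.43 ± 0.40, adjusted p = 1.4e-04, or -4.25 without low 2).

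In the nonclassical list, Ace, which activates angiotensin, was at 417 and 457 CPM in Fth1-low and 22.96, 4.96 and 30.2 CPM in Fth1-high cells, and at 1973 and 2419 CPM in untreated cells. The order untreated, Fth1-low, Fth1-high had no overlap (-4.50 ± 0.63, adjusted p = 0.0043 between the gates). Treml4, an innate receptor, was at 109 and 149 against 13.2, 17.2 and 13.1 CPM (-3.18 ± 0.23, adjusted p = 1.2e-04). Pglyrp1, which binds bacterial peptidoglycan, was at 26.8 and 24.4 against 0.863, 0.772 and 2.01 CPM (-4.31 ± 0.38, adjusted p = 3.1e-04, or -4.94 without high 3). Ear2, a ribonuclease, was at 109 and 88.97 against 4.45, 4.39 and 10.9 CPM (-3.87 ± 0.43, adjusted p = 9.6e-04, or -4.47 without high 3). For both, high 3 was the highest of its group and still far below the Fth1-low libraries. Nr4a1, the nuclear receptor that nonclassical monocytes need, was at 1853 and 1840.1 against 707, 564 and 736 CPM, nearly identical in low 1 and low 2 (-1.46 ± 0.22, adjusted p = 0.0037). Cd300lg, a CD300-family receptor, was at 40.2 and 43.4 against 1.66, 1.30 and 1.20 CPM (-4.95 ± 0.26, adjusted p = 5.6e-05).

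Cd244a, Dgkg, Abca6 and Lrg1 were among the 15 largest falls. Cd244a (chr1:171559193-171609746 in mm10, plus strand), a receptor of the SLAM family that binds CD48, was at 127 and 144 CPM in Fth1-low and 8.09, 4.999 and 5.83 CPM in Fth1-high cells. Untreated cells held 169 and 221 CPM, and the Fth1-high libraries lay far below all 4 (-4.44 ± 0.26, adjusted p = 6.1e-05). Dgkg, a diacylglycerol kinase, was at 28.5 and 38.5 against 2.52, 0.406 and 1.24 CPM (-4.75 ± 0.51, adjusted p = 9.6e-04), a call lost without low 2 (adjusted p = 0.054) with a difference of -5.39 without high 1. Abca6, a lipid transporter, was at 21.8 and 23.5 against 1.33, 1.95 and 0.460 CPM (-4.21 ± 0.47, adjusted p = 8.2e-04). Lrg1, a secreted leucine-rich glycoprotein, was at 38.5 and 70.6 CPM in Fth1-low cells but 3.32, 2.40 and 3.64 CPM in Fth1-high and 3.08 and 0.653 CPM in untreated cells. Lrg1 was thus high only in the Fth1-low cells of the LPS mice (-4.20 ± 0.48, adjusted p = 0.0011 between the gates). Ly9 lies opposite Cd244a, and the counting strand is not given in the sources used here.

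Granule and alarmin genes were 0 higher and 7 lower of 21 (median -1.15, or -0.44 without low 2), with 3 higher at an unadjusted p below 0.05 and 1 by DESeq2's Wald test, 5 lower without low 1, 1 higher and 5 lower without low 2, and 4 lower without high 2. S100a4, a calcium-binding protein of motile cells, was at 897 and 643 against 66.9, 108 and 141 CPM (-2.87 ± 0.32, adjusted p = 8.8e-04). Padi4, which citrullinates histones, was at 35.2 and 33.2 against 6.97, 3.82 and 4.52 CPM (-2.75 ± 0.28, adjusted p = 5.6e-04). Prtn3, a granule protease of early myeloid cells, was at 43.5 and 14.1 against 0.995, 1.18 and 0.954 CPM, about 3-fold apart between low 1 and low 2 (-4.66 ± 0.53, adjusted p = 9.1e-04, -3.77 without low 1 and -5.36 without low 2). For S100a4 and Padi4 low 1 and low 2 were close. Summed over the tested members of the list, levels were 6705 and 7485 CPM against 6247, 8086 and 7388 CPM, which overlap. Of 11 neutrophil markers, S100a9 and Mmp8 were lower in Fth1-high cells and 7 other tested ones were not called. The 11 markers summed to 655 and 697 CPM against 392, 409 and 375 CPM. Csf3r, which was not called, was the largest part of each sum, at 497 and 366 against 330, 272 and 297 CPM.

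Most adhesion genes that passed the test were lower. Of 25 adhesion and integrin genes 2 were higher and 7 lower (median -0.56), with 0 and 6 without low 1, 1 and 4 without low 2, 0 higher without high 2 and 0 and 3 without high 3. Ceacam1, an adhesion receptor with an inhibitory tail, was at 186 and 207 CPM in Fth1-low, 21.3, 16.5 and 14.5 CPM in Fth1-high and 459 and 519 CPM in untreated cells (-3.50 ± 0.22, adjusted p = 8.6e-05). Spn, the sialoprotein CD43, was at 161 and 273 against 38.9, 42.02 and 46.98 CPM (-2.37 ± 0.24, adjusted p = 5.6e-04). Ceacam1 and Spn were lower in every Fth1-high library. Itga4, an integrin chain for binding inflamed endothelium, was at 1013 and 856 against 444, 378 and 315 CPM (-1.30 ± 0.24, adjusted p = 0.011), and lost its call without high 3 (adjusted p = 0.053).

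Among 21 chemokine and migration receptors 3 were higher and 3 lower (median -0.25), with 2 and 4 without low 1, 5 and 1 without low 2, where the median was 0.94, and 1 higher without high 2. Ccr2, which draws classical monocytes from marrow and blood, was at 894 and 1545 CPM in Fth1-low cells, 360.5, 148 and 169.6 CPM in Fth1-high cells and 1389.8 and 1252 CPM in untreated cells. High 1 held more than the other Fth1-high libraries and still lay below all Fth1-low ones (-2.44 ± 0.39, adjusted p = 0.0057). S1pr5, an exit receptor for the blood, was at 8.37 and 11.5 against 0.796, 0.244 and 1.03 CPM (-3.97 ± 0.42, adjusted p = 6.1e-04), a call lost without low 2 (adjusted p = 0.12). The Fth1-high libraries held few counts of S1pr5. Cmklr1, the chemerin receptor, was higher, at 154 and 212 against 514, 532 and 433 CPM (1.41 ± 0.24, adjusted p = 0.0070). Ccrl2, which presents chemerin and does not signal, was at 397 and 639 against 1155, 1297 and 1235 CPM (1.24 ± 0.25, adjusted p = 0.015), a call lost without high 2 (adjusted p = 0.053).

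Inflammatory ligands were split. Of 22 chemokine ligands 3 were higher and 6 lower (median -0.82), with 1 and 5 without low 1, 1 and 3 without low 2, where the median was 0.86, and 1 higher without high 2. Cxcl10, a ligand of Cxcr3 on T cells, was at 926 and 838 against 342, 421 and 258 CPM. Cxcl11, another ligand of this receptor, is listed as a polymorphic pseudogene in the annotation. Its level was 36.8 and 22.2 against 7.36, 5.20 and 4.35 CPM. Both were lower in every Fth1-high library (-1.37 ± 0.23, adjusted p = 0.0071 for Cxcl10, and -2.32 ± 0.42, adjusted p = 0.0097 for Cxcl11), while untreated cells held 33.6 and 35.98 CPM of Cxcl10. Ccl22, a ligand of Ccr4, was at 18.4 and 24.1 against 2.65, 1.22 and 3.04 CPM (-3.24 ± 0.52, adjusted p = 0.0055), a call lost without low 2 (adjusted p = 0.074). Of 41 interferon-stimulated genes, beside the chemokines above, 4 were lower at an unadjusted p below 0.05 and 2 by DESeq2's Wald test. Called higher were 2.44% of the list and lower 0% (median -0.05), against 3.68% and 4.57% of all genes. In 41 genes such counts do not set the list apart, and the single call was 1 gene higher. That gene was Bst2, tetherin, at 112 and 114 against 264, 194 and 339.6 CPM (1.23 ± 0.27, adjusted p = 0.020), and it lost its call without low 1, low 2 or high 3 (adjusted p = 0.11, 0.092 and 0.065). Without high 1 the interferon list had 1 lower.

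Cytokine and mediator genes were 8 higher and 7 lower of 34 (median 0.15), with 3 and 7 without low 1 (median -0.20), 5 and 3 without low 2, 4 higher without high 2 or high 3 (median -0.02 without high 3), and 5 higher without untreated 2. Il12b, the shared chain of interleukins 12 and 23, was at 36.8 and 73.8 CPM in Fth1-low and 5.71, 3.98 and 6.54 CPM in Fth1-high cells, and at 0.0416 and 0 CPM in untreated cells. Every Fth1-high library was below both Fth1-low ones (-3.44 ± 0.33, adjusted p = 4.3e-04, or -2.76 without low 2). Il1r2, the decoy receptor of interleukin 1, was at 53.6 and 59.5 against 14.1, 9.43 and 8.38 CPM (-2.43 ± 0.25, adjusted p = 5.7e-04). Tnfsf13b, the B cell factor BAFF, was higher, at 10.04 and 17.1 against 43.6, 64.4 and 57.4 CPM (1.84 ± 0.28, adjusted p = 0.0042, or 2.47 without low 2). Tnfsf13b lost its call with all libraries thinned to the depth of low 1 (adjusted p = 0.068). Saa3, an acute phase protein made by macrophages, was at 244 and 1016 CPM in Fth1-low cells and 2883, 9416 and 5751 CPM in Fth1-high cells, from 1.04 and 0.466 CPM in untreated cells. It varied widely within both groups, yet every Fth1-high library was above both Fth1-low ones (3.23 ± 0.72, adjusted p = 0.029). The Saa3 call was lost without low 1, high 2 or high 3 (adjusted p = 0.091, 0.063 and 0.088), and its difference was 2.54 without low 1 and 4.63 without low 2.

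Of 14 genes of MHC class II presentation and costimulation 0 were higher and 2 lower (median -0.23), with 4 higher at an unadjusted p below 0.05 and 3 by DESeq2's Wald test. Summed over the list, levels were 8031 and 11780 CPM in Fth1-low against 19892, 12294 and 19256 CPM in Fth1-high cells. The sum was thus higher in every Fth1-high library, though by little in high 2 over low 2. The 2 genes called lower were both costimulatory. Cd40, a costimulatory receptor, was at 156 and 224 against 99.4, 87.9 and 92.5 CPM (-1.05 ± 0.21, adjusted p = 0.015). Cd80, a costimulatory ligand on presenting cells, was at 53.6 and 45.3 against 23.3, 28.2 and 26.9 CPM (-0.88 ± 0.20, adjusted p = 0.028). Cd40 lost its call without low 2, high 2 or high 3 (adjusted p = 0.077, 0.061 and 0.062). Cd80 lost its call without any 1 of the 5 LPS libraries (adjusted p = 0.071, 0.064, 0.072, 0.077 and 0.091). The list had 1 higher without low 2 and 2 higher without high 2, 0 lower without low 2, high 2 or high 3, 1 lower without high 1, and a median of 0.07 without low 1.

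Macrophage and phagocytic receptors were 7 higher and 2 lower of 36 (median 0.52), with 2 and 2 without low 1, 9 and 1 without low 2, 2 higher without high 2 or high 3, 4 without untreated 1 and 3 without untreated 2. Stab1, a scavenger receptor (chr14:31139013-31168641 in mm10, minus strand), was at 109 and 99.6 CPM in Fth1-low, 699, 568 and 532 CPM in Fth1-high and 10.4 and 6.90 CPM in untreated cells. Low 1 and low 2 were close, and the call held without any single library (2.53 ± 0.26, adjusted p = 5.6e-04). Mertk, the receptor for dying cells that binds Pros1, was at 23.4 and 28.03 against 138, 189 and 136 CPM (2.53 ± 0.46, adjusted p = 0.011), and lost its call without low 1 or low 2 (adjusted p = 0.062 and 0.086). Clec10a, a lectin also used as a dendritic cell marker, was lower, at 20.1 and 21.3 against 4.71, 5.32 and 4.95 CPM (-2.06 ± 0.20, adjusted p = 4.9e-04), a call lost with all libraries thinned to the depth of low 1 (adjusted p = 0.060). Of 14 interstitial macrophage markers 5 were higher and 2 lower, with sums of 1507 and 2774 CPM against 2620, 2893 and 3059 CPM. Ccr2, also a monocyte marker and 1 of the 2 lower, made up most of both Fth1-low sums. It was at 894 and 1545 against 360.5, 148 and 169.6 CPM, so the sums partly hide the rises. C1qc, 1 of the 5 higher, was at 73.7 and 181 against 394, 605 and 643 CPM. The part of interstitial macrophages in these differences was not tested.

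Of 48 transcription factors of monocytes and macrophages 5 were higher and 8 lower (median -0.04, above 0 without low 2 or high 1), with 3 and 7 without low 1, 3 and 5 without low 2, 2 and 5 without high 2 and 3 higher without high 3. Bhlhe41, a repressor known from resident macrophages of the lung, had no count in low 1, 0.0514 CPM in low 2 and 3.45, 6.14 and 10.1 CPM in Fth1-high cells. Its Fth1-low level rests on 1 count in low 2, so no fold is given (adjusted p = 0.0075), and the call was lost without low 2 (adjusted p = 0.20). Id3, an inhibitor of E proteins, was at 43.5 and 21.4 against 4.98, 3.54 and 5.30 CPM (-2.66 ± 0.33, adjusted p = 0.0015). Id1, of the same family, was at 13.4 and 22.1 against 7.43, 6.26 and 7.67 CPM (-1.44 ± 0.25, adjusted p = 0.0084), a call lost without low 2 (adjusted p = 0.30). Egr1, an immediate early factor, was at 305 and 337 against 111, 92.6 and 152 CPM (-1.44 ± 0.23, adjusted p = 0.0054).

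Several of the called genes with the highest CPM had smaller differences and less firm calls. Ptprc, the pan-leukocyte phosphatase CD45, was at 1779.6 and 2274 against 1062, 901 and 898 CPM (-1.09 ± 0.24, adjusted p = 0.024), and lost its call without low 2, high 2 or high 3 (adjusted p = 0.086, 0.088 and 0.11). Coro1a, an actin regulator of leukocytes, was at 1354 and 1778 against 483, 562 and 511 CPM, lower in every Fth1-high library (-1.60 ± 0.23, adjusted p = 0.0031), a call that held without any single library. Chil3, a chitinase-like protein, was at 3189 and 5805 against 471, 1877 and 741 CPM, with high 2 above the other Fth1-high libraries (-2.13 ± 0.52, adjusted p = 0.040). Alveolar macrophage markers, a list that includes Chil3, summed to 3244 and 5904 CPM against 569, 1997 and 949.7 CPM, with 2 higher and 1 lower of 12. Chil3 made up most of each sum and was the 1 that was lower, so the sums mainly repeat its levels. The 2 that were higher were Ctsk, at 6.70 and 4.32 against 21.5, 17.3 and 48.6 CPM, and Olr1, at 20.1 and 37.9 against 52.5, 74.2 and 84.2 CPM. The Chil3 difference was -2.91 without high 2, and its call was lost without untreated 1, untreated 2, low 1, low 2 or high 3 (adjusted p = 0.061, 0.063, 0.070, 0.18 and 0.13). Grn, the lysosomal and secreted progranulin, was at 655 and 1093 against 1926, 2381 and 2414 CPM (1.35 ± 0.28, adjusted p = 0.016), a call lost without low 1, high 2 or high 3 (adjusted p = 0.063, 0.051 and 0.055). The mitochondrial ribosomal RNA mt-Rnr1 was also called lower (-3.21 ± 0.71, adjusted p = 0.036). It was at 3909 and 499.9 CPM in low 1 and low 2 against 265, 266 and 181 CPM, so that low 1 stood far above the rest, and without low 1 the difference was -1.10 (adjusted p = 0.044). That call was lost without untreated 1, untreated 2, high 1, high 2 or high 3 (adjusted p = 0.057, 0.059, 0.12, 0.16 and 0.16), and the difference was -4.03 without low 2.

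**Figure D5:**
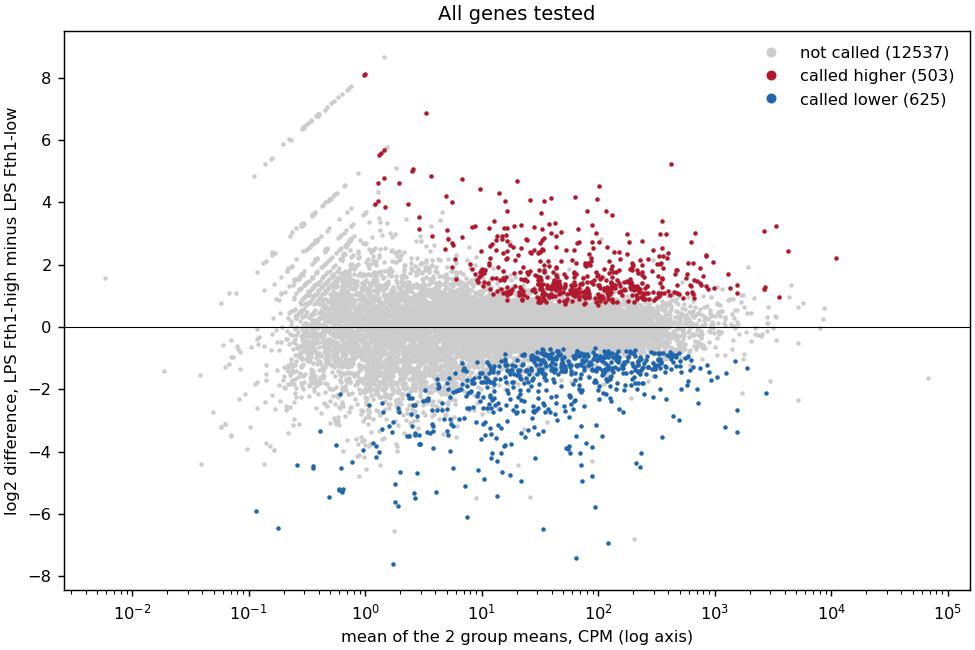
Log2 difference of the 13665 genes tested, LPS Fth1-high over LPS Fth1-low, against the mean of the 2 group means in CPM on a log axis. The 503 genes called higher and 625 called lower span low and high levels, and the diagonal lines of grey points at low levels are genes with very few counts in the Fth1-low libraries.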

How the data were processed

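Sorted lung monocytes were measured by RNA-seq of polyadenylated RNA from 25 ng input, with a stranded kit and 15 PCR cycles, per the labels' protocols. The authors deposited 1 table of raw read counts for 26130 genes and 7 libraries. The submitters' processing notes name DRAGEN, DESeq2 and mm10, while tool versions, annotation and strand setting were not given in the sources used here. Of 135 named genes with a position (GENCODE vM21, mm10), 43 overlap a gene on the other strand.

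Genes were filtered with filterByExpr (13665 kept, also for log2 fold changes), scaled by TMM and tested with edgeR 4.0.16 (R 4.3.3) by the quasi-likelihood test over all 7 libraries, with Benjamini-Hochberg adjustment over all genes and a call at 0.05. The standard error is the log2 difference divided by the square root of F. Library totals ran from 637787 to 27997007 counts, and counting error is largest in the shallowest. Alternatives used limma 3.58.1, DESeq2 1.42.0, other filters and samples, thinning, and a replicate block.

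The 26 gene lists (734 genes, 706 tested), cell type markers and comparison were chosen with earlier results of these data known. Named were the 15 largest rises and falls of at least 10 CPM without overlap, the 8 most abundant called genes in each direction, up to 4 called members per list by adjusted p, the sort's genes, and genes setting the LPS Fth1-low libraries apart. Some of the genes this rule names are not reported here. The 5 lysosomal E-box sites, the E-box count in the lysosomal list, and Mitf, Tfeb and Tfe3 were added after seeing the data.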

Additional observations from a re-analysis of the deposited data

How the results depend on the processing

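In low 1, 1 count equals 1.67 CPM, and 98 of the 503 rises had at most 3 counts in it. Fewer than 3 counts in it were found for 3737 of all 13665 genes tested. With 1 library left out at a time, genes called higher numbered 263 to 682 and genes called lower 379 to 602, against 503 and 625 with all 7, and the share of calls that were higher was 33.7% without low 1 and 64.3% without low 2. Under the settings that changed the scaling, test, filter, depth or samples without leaving out a single library, the counts were 424 to 634 higher and 508 to 875 lower. The 421 calls kept without either LPS Fth1-low library became 754 by DESeq2's Wald test and 154 by limma-voom, and the cause was not tested. Other settings kept 308 to 528.

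Of 119 named genes called, all 119 kept their call with DESeq2's size factors, upper-quartile scaling or DESeq2's Wald test. By limma-voom, the adjusted p of Bhlhe41, Bst2, Cd80, Chil3, Mki67, Msmo1 and mt-Rnr1 passed 0.05. With libraries thinned to the depth of low 1, 12 calls were lost, among them those of Clec10a, Cyp51, Gclm, Id1, Mki67, Msmo1, Saa3, Srxn1, Tnfsf13b and mt-Rnr1. The calls of Chil3, H2-K1, Saa3 and mt-Rnr1 were lost with no filter, and those of Chil3, Ctsb, H2-K1, Pkm and mt-Rnr1 with only the 5 LPS libraries. Leaving out low 2 lost 26 calls, the most of any library. Of the 52 list counts, 24 moved by over 1.5 times without low 2, 21 without high 2, 18 without low 1, 18 with thinning, 15 by the Wald test and 1 to 14 under each other setting.

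Differences that changed sign were all of uncalled genes. Over the fits that leave out 1 library, Ccn2 ran from -4.47 to 1.08, Efemp1 from -4.26 to 1.10, Hspg2 from -4.29 to 0.90, Lars2 from -3.46 to 0.33, Malat1 from -2.21 to 1.19, Rn7sk from -4.52 to 0.99, P4hb from -0.0395 to 1.70, Rap1b from -1.10 to 0.49, Cct5 from -0.52 to 0.90, Lyz2 from -0.22 to 0.17 and Tfe3 from -0.0221 to 0.0912. By limma-voom Cct5 was at 0.0809 and Lyz2 at 0.10.

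Replicate numbers were not taken as pairs. Deviations of low 1 and high 1 correlated at 0.27 and those of low 2 and high 2 at 0.09. With 2 Fth1-low libraries, the deviation of low 2 is that of low 1 with the sign changed. These values therefore cannot tell whether libraries of equal number were paired. With the replicate block 560 genes were higher and 768 lower, and the calls of Cd80, H2-K1, Mcm6, Msmo1 and mt-Rnr1 were lost.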

Other observations

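Some called members of the gene lists that the naming rule left out kept their call under every alternative setting tried, including each library left out, and they are given here, chosen after their values were seen. Il27, the specific chain of interleukin 27, was at 51.9 and 29.1 CPM in low 1 and low 2 and at 11.5, 9.31 and 7.11 CPM in high 1, high 2 and high 3. Every Fth1-high library was below both Fth1-low ones (-2.03 ± 0.35, adjusted p = 0.0081). Batf3, a factor of cross-presenting dendritic cells, was at 21.8 and 12.8 against 3.98, 4.06 and 5.62 CPM (-1.77 ± 0.33, adjusted p = 0.010). Cebpd, a factor of the acute phase response, was at 56.9 and 51.3 against 13.7, 16.1 and 19.8 CPM (-1.69 ± 0.21, adjusted p = 0.0015). For both, the Fth1-high libraries lay below all Fth1-low ones. Tspan13, a tetraspanin, was also lower, at 63.6 and 84.7 against 11.7, 6.62 and 14.8 CPM (-2.78 ± 0.32, adjusted p = 9.6e-04).

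Within the classical monocyte list, whose called members were mostly lower, a few went the other way. Ly6i, of the Ly6 family, was at 203 and 291 CPM in Fth1-low, 1081, 1066 and 995 CPM in Fth1-high and 43.98 and 54.6 CPM in untreated cells. The 3 groups did not overlap (2.07 ± 0.24, adjusted p = 0.0011 between the gates). Anpep, the aminopeptidase CD13, was at 244 and 329 against 1177, 1672 and 1373 CPM (2.28 ± 0.26, adjusted p = 9.0e-04). Among enzymes, Ldha, which turns pyruvate to lactate, was at 201 and 362 against 736, 856 and 963 CPM (1.57 ± 0.28, adjusted p = 0.0094). Aldoa, a glycolytic aldolase, was at 507 and 708 against 1864, 1985 and 2158 CPM (1.71 ± 0.25, adjusted p = 0.0033). Gla, the lysosomal galactosidase and 1 of the 6 higher lysosomal genes with an E-box, was at 61.9 and 74.01 against 140.4, 167 and 162 CPM (1.18 ± 0.20, adjusted p = 0.0072). All 4 of these were higher in every Fth1-high library, and reads of Ly6i, Ldha and Aldoa may be shared with close copies.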
